A study of Mus musculus with 8 samples.

Results

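The comparison covers skin of wildtype mice at postnatal day 19 against skin of wildtype mice at postnatal day 16, an interval in which the first hair growth phase of the mouse gives way to regression and rest. Genes were taken by a fixed rule, as protein-coding genes with a value of at least 1 in either wildtype library, joined on the gene identifier. The rule kept 13585 of the 21976 protein-coding genes in the files, against 14308 that reach 1 in any of the 8 libraries of the series. The wildtype groups carry no mutation, allele or treatment per the labels, and the strain is not given there. The hairloss groups carry a spontaneous mutation that the labels do not name, and their skin at day 19 and day 16 is used only to show where the wildtype step differs. Wildtype skin at days 0 and 28 gives the levels before and after. Each genotype and age has 1 library of total RNA from whole skin, and the number of animals behind a library is not given. A difference between days therefore has no replicate check, describes these libraries only and carries no test.

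Values are FPKM, fragments per kilobase of transcript scaled to library depth, and a difference is log2(FPKM + 1) at day 19 minus the same at day 16. A gene is said to have risen or fallen only when this difference is at least 1 in size, called 2-fold here. The scale understates the change of genes near or below 1 FPKM. The spacing of the lowest values implied 38900000 fragments at day 19 and 32400000 at day 16, so that 3 fragments over 1 kb make 0.0771 FPKM at day 19 and 0.0927 FPKM at day 16. These floors cover counting error only. Xist, the X-inactivation RNA of female cells and no coding gene, stood at 12.4 FPKM at day 19 and 0.0158 FPKM at day 16. The Y-linked genes Ddx3y, Uty, Kdm5d and Eif2s3y were present in both libraries, with Ddx3y at 15.8 and 20.1 FPKM. The day 19 library thus held Xist and Y-linked RNA together, and the part of sex in the differences was not tested.

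Hair follicles cycle through growth (anagen), regression (catagen) and rest (telogen). In growth, matrix cells around the dermal papilla divide and differentiate into the hair shaft and the inner root sheath, a sleeve that guides the shaft and is later lost. The shaft is built of hair keratins set in a matrix of keratin-associated proteins, cross-linked through cysteine bonds and enzymes. In regression the lower follicle dies back, and at rest the bulge and the hair germ hold the stem cells from which the next shaft grows.

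The genes that fell most were keratin-associated protein genes and hair and inner root sheath keratin genes, and the bases just before their starts are shown because these genes moved together. Each line gives bases 100 to 1 before the annotated start, 5′ to 3′ on the strand of the gene, from RefSeq on build GRCm38.p6, with the letters TATAAA in capitals where they lie within bases 60 to 11 before the start. Krtap8-1 (chr16:89487953-89488052, minus strand) and Krtap11-1 (chr16:89571184-89571283, minus strand) encode 1 glycine-tyrosine-rich and 1 high-cysteine protein of the shaft matrix. Krt31 (chr11:100050552-100050651, minus strand) and Krt34 (chr11:100041555-100041654, minus strand) encode keratins of the shaft cortex. Krt28 (chr11:99374904-99375003, minus strand) and Krt71 (chr15:101743098-101743197, minus strand) encode inner root sheath keratins. Krtap14 (chr16:88826146-88826245, minus strand), Krtap15 (chr16:88828909-88829008, plus strand) and Krt72 (chr15:101786521-101786620, minus strand), an inner root sheath keratin, are shown because they had 3 of the 4 largest falls of all genes and lack the 6 letters in this window.
Krtap8-1: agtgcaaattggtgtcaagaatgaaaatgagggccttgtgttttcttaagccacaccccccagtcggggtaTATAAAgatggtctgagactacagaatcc
Krtap11-1: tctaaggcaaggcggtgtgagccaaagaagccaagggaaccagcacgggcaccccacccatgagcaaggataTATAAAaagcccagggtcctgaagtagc
Krt31: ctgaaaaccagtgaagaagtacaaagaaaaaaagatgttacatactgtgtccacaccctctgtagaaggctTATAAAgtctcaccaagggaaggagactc
Krt34: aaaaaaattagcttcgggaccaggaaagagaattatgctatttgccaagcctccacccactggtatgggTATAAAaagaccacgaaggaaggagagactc
Krt28: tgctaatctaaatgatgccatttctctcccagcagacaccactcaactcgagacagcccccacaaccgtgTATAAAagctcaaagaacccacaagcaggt
Krt71: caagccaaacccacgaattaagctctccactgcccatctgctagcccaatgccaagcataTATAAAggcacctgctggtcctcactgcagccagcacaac
Krtap14: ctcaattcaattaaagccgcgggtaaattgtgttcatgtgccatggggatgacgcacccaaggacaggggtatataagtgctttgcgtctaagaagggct
Krtap15: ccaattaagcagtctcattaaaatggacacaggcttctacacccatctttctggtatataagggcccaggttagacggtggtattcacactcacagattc
Krt72: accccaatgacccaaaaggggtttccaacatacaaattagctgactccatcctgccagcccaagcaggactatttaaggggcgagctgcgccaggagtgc
In the first 6 of these lines the letters begin 28 to 40 bases before the start. TATAAA on the gene's strand, wholly within bases 60 to 11 before the start, was found in 32 of 44 promoters of keratin-associated protein genes (72.7%), with 44 of the 50 compared genes matched to the promoter table. All 27025 promoters of the table held it in 787 cases (2.91%). The share was 23 of 28 (82.1%) for the high-cysteine and 9 of 16 (56.2%) for the glycine-tyrosine-rich proteins, and 6 of 11 (54.5%) for the inner root sheath list. Skeletal muscle genes, whose levels rose, held it in 2 of 18 matched promoters (11.1%). A second motif, CTTTGAA on either strand of the 250 bases before the start, the textbook core of sites for the Lef1 family, was in 7 of 44 promoters of keratin-associated protein genes (15.9%) and in 4.64% of all promoters. No inner root sheath promoter of 11 held it. A match of letters is a description of the window and not a binding site. Hair shaft keratins were left out of these shares because 9 of 15 had a promoter in the table, under the 80% needed.

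**Figure D1:**
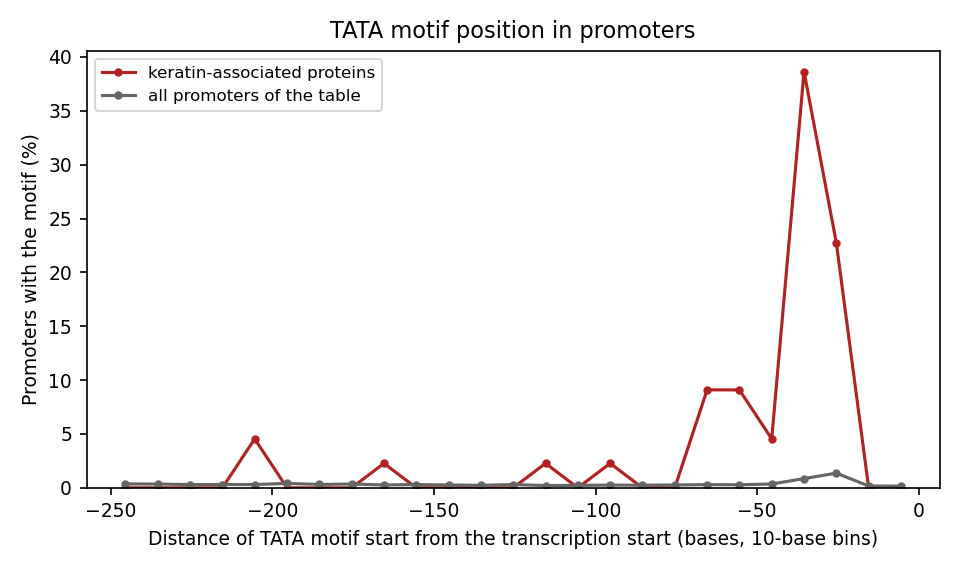
Share of promoters (%) in which TATAAA on the gene's strand begins in each 10-base bin before the transcription start, for the 44 matched keratin-associated protein genes and for all 27025 promoters of the table. The keratin-associated protein genes peak at 38.6% and 22.7% in the bins from 40 to 21 bases before the start, where all promoters stay near the axis.

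Of the 13585 genes, 13557 had a value above 0 in both libraries and were compared. At least 2-fold higher at day 19 were 884 genes (6.52%) and at least 2-fold lower were 863 (6.37%), so 12.9% passed in either direction. The counts were alike but the sizes were not. Falls reached -8.05 and rises 3.797 on the log2 scale, and 314 genes fell but 29 rose by 4-fold or more. Past 16-fold on that log2(FPKM + 1) scale, 147 genes fell (1.08%) and none of the 13557 rose. By ratio of FPKM alone some rises were larger, such as 23.8-fold for Wfdc3 and 83.8-fold for Slc5a11, genes low at day 16. Of the 147, 67 are named as keratins or keratin-associated proteins. The 16-fold lower genes held 0.159% of the coding FPKM at day 19 and 12.8% at day 16. The genes that rose held 13.6% at day 19 and 3.98% at day 16. Scaling moved the balance of the counts. The median difference was -0.01 as deposited, 0.29 with each library scaled to the same coding total and 0.17 with that total taken without keratins and keratin-associated proteins. The first of these scalings gave 1720 higher and 598 lower genes, so that 74.2% of the differences past 2-fold were rises against 50.6% as deposited. The second gave 1347 higher and 696 lower, of which 65.9% were rises. A further 28 genes were listed at exactly 0 in 1 of the libraries, which can be a failed estimate, and have no difference.

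Members near the minimum of 1 show how the rule acts. Just inside it were Med12l, at 1.001 FPKM at day 19 against 0.893 FPKM at day 16, and Cspg5, at 0.609 and 1.002 FPKM. Just outside was Slc35f2, at 0.9997 and 0.981 FPKM. Of the compared genes, 615 reached 1 FPKM at day 19 alone and 392 at day 16 alone, and such genes enter only through the day on which they are higher.

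**Figure D2:**
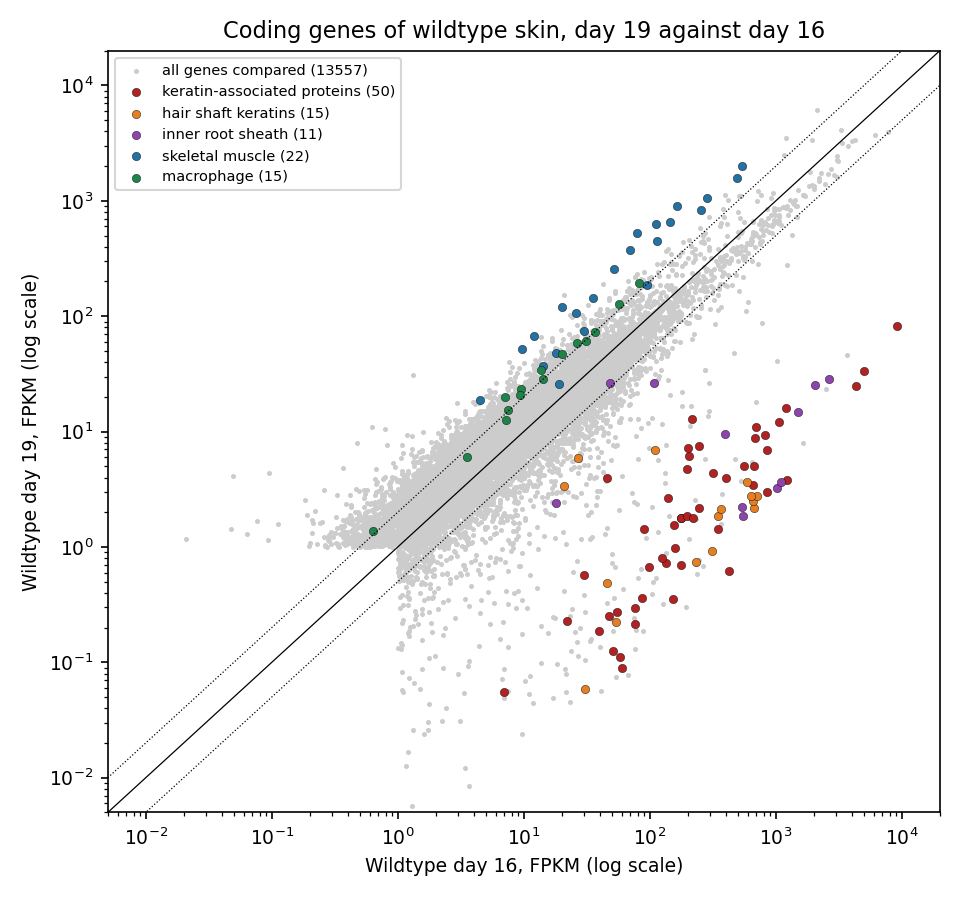
FPKM at day 19 (vertical, log scale) against day 16 (horizontal, log scale) for the 13557 compared coding genes of wildtype skin, 1 library a day, with 5 gene lists in colour. The solid line marks equality and the dotted lines a 2-fold ratio of FPKM. Keratin-associated proteins, hair shaft keratins and most of the inner root sheath list lie far below the line, and skeletal muscle and macrophage genes lie on or above the upper dotted line or just under it.

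Hair shaft keratins, the filament proteins of the hair itself, had a median level of 2.17 FPKM at day 19 and 313 FPKM at day 16. All 15 measured genes of the list fell at least 2-fold, with a median difference of -6.93 (range -7.73 to -2.02), against a median of -0.01 over all genes compared. Of the 15, 5 were under 1 FPKM at day 19 and passed the minimum through day 16 alone. Krt83, a type II keratin of the shaft, had 2.17 FPKM at day 19 and 672 FPKM at day 16. Krt86, its close relative, had 2.79 and 709.6 FPKM at days 19 and 16, and Krt81 had 2.79 and 636 FPKM. Among the type I partners, Krt33a had 2.51 FPKM at day 19 and 663 FPKM at day 16. Krt31 (chr11:100046646-100050551, GRCm38) had 0.915 and 313 FPKM on those days, a 342-fold ratio. The list was not uniform. Krt32 was left at 6.901 FPKM at day 19 against 109.8 FPKM at day 16, Krt36 at 3.41 against 20.8 FPKM and Krt84 at 5.89 against 27.02 FPKM. Krt84, a type II keratin known from the tongue as well as the hair, fell least, by 2.02 on the log2 scale. These 3 were named after their values were seen. In whole skin, fewer cells of a type and less RNA per cell cannot be told apart, here and for every list that follows.

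Genes of keratin-associated proteins, which fill the space between keratin filaments in the shaft, fell together as well. Of 57 genes, 54 reached 1 FPKM, 4 of these were listed at 0 at day 19, and all 50 compared fell at least 2-fold, with a median of -6.01 and a range of -8.05 to -2.91. Day 16 alone carried 19 of the 50 past the minimum. Krtap14 had 0.614 FPKM at day 19 against 427 FPKM at day 16, and its neighbour Krtap15 had 3.84 and 1222 FPKM. Krtap11-1 had 2.98 FPKM at day 19 and 844 FPKM at day 16. These 3 genes of chromosome 16 had the largest falls of the family. Krtap22-2 and Krtap8-1, named for their high level at day 16 after it was seen, fell by more than the family median. Krtap22-2 had 82.7 FPKM at day 19 against 9076 FPKM at day 16, and Krtap8-1 had 33.4 and 5004 FPKM. Their differences were -6.76 and -7.19. High-cysteine proteins (33 genes, median -5.99) and glycine-tyrosine-rich proteins (17 genes, median -6.12) moved alike in size. By location, the 22 compared genes on chromosome 16 had a median of -6.24 and the 20 on chromosome 11 a median of -6.05, so the fall was shared by clusters that lie apart in the genome. Smallest were the falls of Krtap29-1, at -2.91 from a day 16 level of 6.92 FPKM, and of Krtap20-2, which had 3.96 FPKM at day 19 and 46.1 FPKM at day 16. Keratins and keratin-associated proteins together made up 1.58% of the coding FPKM at day 19 and 10.5% at day 16. Many of these genes are near-identical copies, so the split of reads between single members is uncertain.

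The inner root sheath list behaved like the shaft. Of 11 compared genes, 10 fell at least 2-fold, with a median of -6.49. Krt28 (chr11:99364872-99374903) had 3.23 FPKM at day 19 and 1014 FPKM at day 16, Krt72 had 3.64 and 1092 FPKM, and Krt73 had 1.87 and 545 FPKM. All 3 are keratins of sheath layers, and so are the more abundant Krt25, Krt27 and Krt71. Krt71 had 28.6 FPKM at day 19 against 2666 FPKM at day 16, and Krt25 and Krt27 had 14.7 and 25.5 FPKM at day 19 against 1505 and 2054 FPKM at day 16. Their FPKM was 93.2-fold, 102-fold and 80.6-fold lower at day 19. Gata3, a transcription factor of sheath fate that the epidermis also expresses, did not pass the 2-fold rule, at 26.6 FPKM at day 19 and 48.4 FPKM at day 16. Tchh, the gene of trichohyalin, was listed at 0 at day 16 and at 34.1 FPKM at day 19, beside 2076 FPKM at day 28, and is not read as a rise. In the companion layer, which lies between the sheaths, Krt75 had 13.6 FPKM at day 19 against 292 FPKM at day 16 and fell. The outer root sheath keratins Krt17 and Krt6a also fell, to 505 and 99.3 FPKM at day 19 against 1337 and 235 FPKM at day 16.

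Enzymes and junction proteins of hardening cells fell selectively. Of 9 protein arginine deiminase and transglutaminase genes, 6 fell and 1 rose (median -2.49), and 2 of the 9 passed the minimum through day 16 alone and 1 through day 19 alone. Padi3, which turns arginine of trichohyalin into citrulline, had 1.17 FPKM at day 19 and 206 FPKM at day 16. Padi1 had 0.676 and 52.9 FPKM, and Tgm3, a cross-linking enzyme of sheath and shaft, had 2.39 and 18.1 FPKM on those days. The member that rose was Tgm5, known from the epidermis, at 26.7 FPKM at day 19 and 8.29 FPKM at day 16. Of 15 desmosomal and adhesion genes, 5 fell and none of the 15 rose. Dsg4, the desmoglein of the hair shaft, had 2.35 FPKM at day 19 against 79.6 FPKM at day 16, and Dsc2 and Pkp3 fell to 5.33 and 69.95 FPKM at day 19, against 42.3 and 226 FPKM at day 16. Dsg1a, a desmoglein of the upper epidermis, stood at 150.5 and 152 FPKM. All 5 measured small proline-rich genes, cross-linked proteins of cornified envelopes, fell too, with a median of -2.13, and 3 of them passed the minimum through day 16 alone. Sprr1a had 278 FPKM at day 19 against 1219.5 FPKM at day 16, and Sprr2h had 0.864 and 50.1 FPKM.

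**Figure D3:**
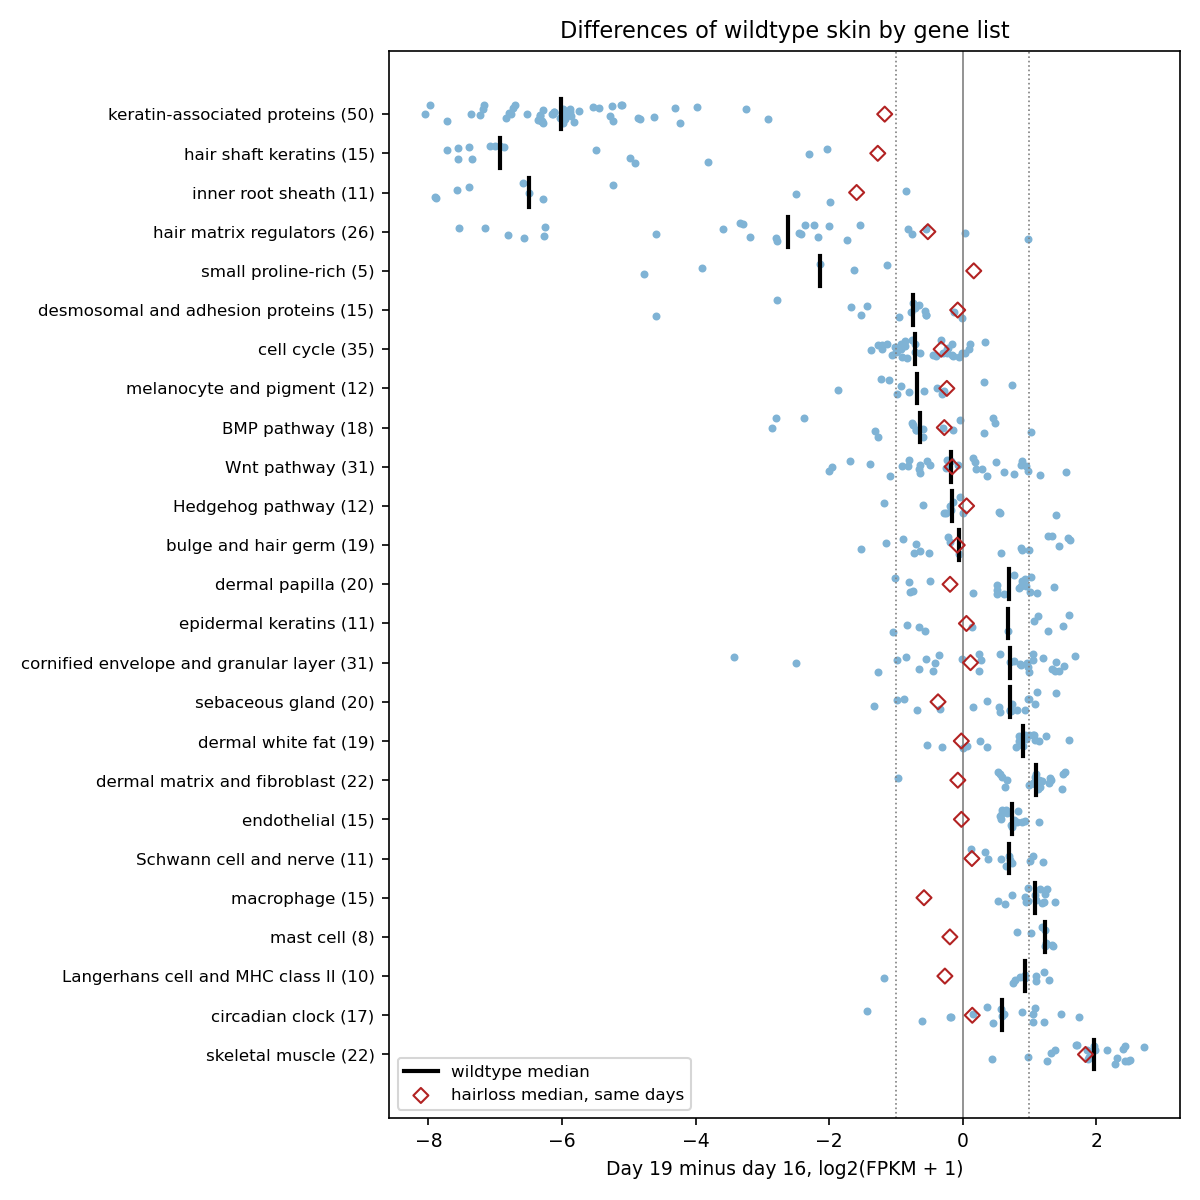
Difference between day 19 and day 16 on the log2(FPKM + 1) scale for the compared genes of 25 lists, 1 point a gene, with the wildtype median as a black bar and the median of the same genes in hairloss skin as an open diamond. The number of genes stands beside each list and the dotted lines mark 2-fold. Wildtype medians run from -6.93 for hair shaft keratins to 1.97 for skeletal muscle, and hairloss medians from -1.59 to 1.84.

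Regulators and specialised products of the hair matrix fell with the shaft. Of 26 genes, 21 fell and none of the 26 rose at least 2-fold, with a median of -2.61. Of the 26, 4 passed the minimum through day 16 alone. S100a3, a calcium-binding protein of the shaft cuticle, had 7.93 FPKM at day 19 and 1655 FPKM at day 16. Gprc5d, an orphan receptor of hardening hair cells, had 1.58 and 365 FPKM, and Crym, a thyroid hormone-binding protein, had 3.72 and 527 FPKM. The transcription factors that follow fell less than these products. Hoxc13, which drives hair keratin genes, had 3.04 FPKM at day 19 and 39.95 FPKM at day 16. Foxn1, the gene mutated in nude mice, had 1.36 and 20.4 FPKM, Msx2 had 2.32 and 31.4 FPKM, and Dlx3 had 7.22 and 97.7 FPKM at days 19 and 16. Lef1, the partner of beta-catenin in the matrix and precortex, had 2.69 FPKM at day 19 and 13.9 FPKM at day 16, a difference of -2.01. Members of the list with a wider range of skin expression did not pass, such as Bmpr1a, a BMP receptor, at 28.5 and 48.7 FPKM, and Lgr6, a stem cell receptor above the bulge, at 8.55 and 3.86 FPKM.

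Genes of dividing cells fell in part, by far less than shaft genes. Of 35 cell cycle genes, 7 fell and none of the 35 rose at least 2-fold, with a median of -0.71. Cdk1, the kinase that starts mitosis, had 6.91 FPKM at day 19 against 19.5 FPKM at day 16, and Mki67, a proliferation marker, had 6.06 and 16.1 FPKM. Ube2c, Cenpa and Bub1, all used in mitosis, made up the rest of the 5 largest falls, at -1.20, -1.20 and -1.13. Of these 5, Cdk1 stayed past the rule under every setting tried that gave it a value. Mki67, Ube2c, Cenpa and Bub1 dropped under it with each library scaled to the coding total, at -0.97, -0.91, -0.90 and -0.95, and with a pseudocount of 5. Of the 35 genes, 3 passed the minimum through day 16 alone. Mcm3 and Pcna, of DNA replication, barely differed, with Mcm3 at 6.35 FPKM at day 19 against 6.19 FPKM at day 16 and Pcna at 36.2 and 33.9 FPKM, both named after their values were seen. Of 60 replication-dependent histone genes, 24 fell and none of the 60 rose (median -0.86). Genes of p53 signalling and cell death did not move as a list, with 2 of 26 higher, 2 lower and a median of 0.20. Cdkn1a, the p53 target that halts the cycle, fell, at 47.4 FPKM at day 19 and 126 FPKM at day 16. Within the gasdermin family of pore-forming proteins, Gsdma fell, at 28.6 and 116 FPKM, and Gsdma2 rose, at 9.103 and 1.29 FPKM at days 19 and 16. Of 12 pigment genes, 3 fell and none of the 12 rose. Gpnmb, a glycoprotein of melanosomes that macrophages also make, had 10.7 FPKM at day 19 and 41.6 FPKM at day 16. Mlana, a melanosome protein, had 2.01 FPKM at day 19 against 6.03 FPKM at day 16, and Trpm1, a melanocyte channel, had 1.13 and 3.55 FPKM. Both dropped under the rule with a pseudocount of 5, Mlana at -0.65 and Trpm1 at -0.48, and with coding-total scaling, Mlana at -0.97 and Trpm1 at -0.88, which leaves Gpnmb. Tyr, the rate-limiting enzyme of melanin synthesis, was already low at day 16, at 1.16 FPKM, against 0.445 FPKM at day 19, and Dct, which follows it in the pathway, stood at 17.1 FPKM at day 19 and 13.5 FPKM at day 16.

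Members of the signalling pathways of the follicle moved both ways, as 6.52% and 6.37% of all compared genes rose and fell. In the Wnt pathway 2 of 31 genes rose and 5 fell, Lef1 and the R-spondin receptor gene Lgr4 among those that fell. The ligands Wnt11 and Wnt5a fell to 5.53 and 6.502 FPKM at day 19, against 24.3 and 18.6 FPKM at day 16. The secreted antagonists Sfrp2 and Sfrp4 rose to 18.1 and 12.8 FPKM at day 19, against 5.58 and 5.19 FPKM at day 16. Nkd2, an intracellular inhibitor of the pathway, fell, at 8.78 and 30.4 FPKM. The share that rose is that of all genes. The list median of -0.18 changed sign to as much as 0.13 under other scalings and gives no direction. Axin2, a target of the pathway, did not pass 2-fold, at 17.9 FPKM at day 19 and 11.3 FPKM at day 16.

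In the Hedgehog pathway 1 of 12 genes fell and 1 rose, close to the shares of all genes. Of the 12, 2 passed the minimum through day 16 alone. Shh, the ligand made by the matrix in growth, had 0.0261 FPKM at day 19, below the floor of 3 fragments in 1 kb, and 1.33 FPKM at day 16. It passed the minimum through day 16 alone, and its difference of -1.18 was -0.33 with a pseudocount of 5. Its targets Gli1 and Ptch1 did not pass, with Gli1 at 3.53 and 4.49 FPKM and Ptch1 at 9.18 and 14.3 FPKM. Cdon, a co-receptor, rose to 19.3 FPKM at day 19, against 6.65 FPKM at day 16. In the BMP pathway 1 of 18 genes rose and 5 fell. Of the 18, 2 passed the minimum through day 16 alone and 1 through day 19 alone. Those that fell were the ligand Bmp8a, at 0.0717 FPKM at day 19 and 6.73 FPKM at day 16, the decoy receptor Bambi, at 1.23 and 14.6 FPKM, the inhibitory Smads Smad7 and Smad6, and the target Id4. Bmp8a passed the minimum through day 16 alone, and its day 19 value was below the floor of 0.0771 FPKM. Smad7 had 2.98 and 19.6 FPKM at days 19 and 16. Smad6 was under the rule with a pseudocount of 5, at -0.78, and Id4 with coding-total scaling, at -0.95. The gene that rose was Grem1, a secreted BMP antagonist, at 14.3 and 6.51 FPKM. The ligands Bmp2 and Bmp4, known from the dermis and dermal papilla at rest, had 7.86 and 14.01 FPKM at day 19, against 8.76 and 24.2 FPKM at day 16, both short of 2-fold.

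Growth factors of the hair cycle moved both ways. Of 25 genes, 6 rose and 7 fell, and 4 passed the minimum through day 19 alone and 2 through day 16 alone. Fgf5, the signal known to end growth, had 0.418 FPKM at day 19 and 9.05 FPKM at day 16. Fgf22 fell as well, at 2.91 and 28.5 FPKM, and so did the EGF receptor ligands Tgfa, at 7.07 and 32.7 FPKM, and Areg, at 1.77 and 6.55 FPKM. Fgf18, known as a bulge signal that holds follicles at rest, rose to 3.07 FPKM at day 19, against 0.492 FPKM at day 16. Fgf7, a dermal papilla factor known to act on the germ, rose to 7.87 against 2.42 FPKM, and Tgfb2, which the papilla also makes, to 10.7 against 3.94 FPKM. With a pseudocount of 5, Fgf7 at 0.79, Fgf18 at 0.56 and Areg at -0.77 no longer passed. Receptors for hormones that act on the cycle moved too. Prlr, the prolactin receptor, had 13.4 FPKM at day 19 and 5.59 FPKM at day 16, which is a rise. Vdr, the vitamin D receptor, fell, at 23.2 and 56.2 FPKM. Its corepressor Hr, which is needed for the next cycle, stood at 79.2 FPKM at day 19 and 156 FPKM at day 16, a difference of -0.97 that does not reach the rule.

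**Figure D4:**
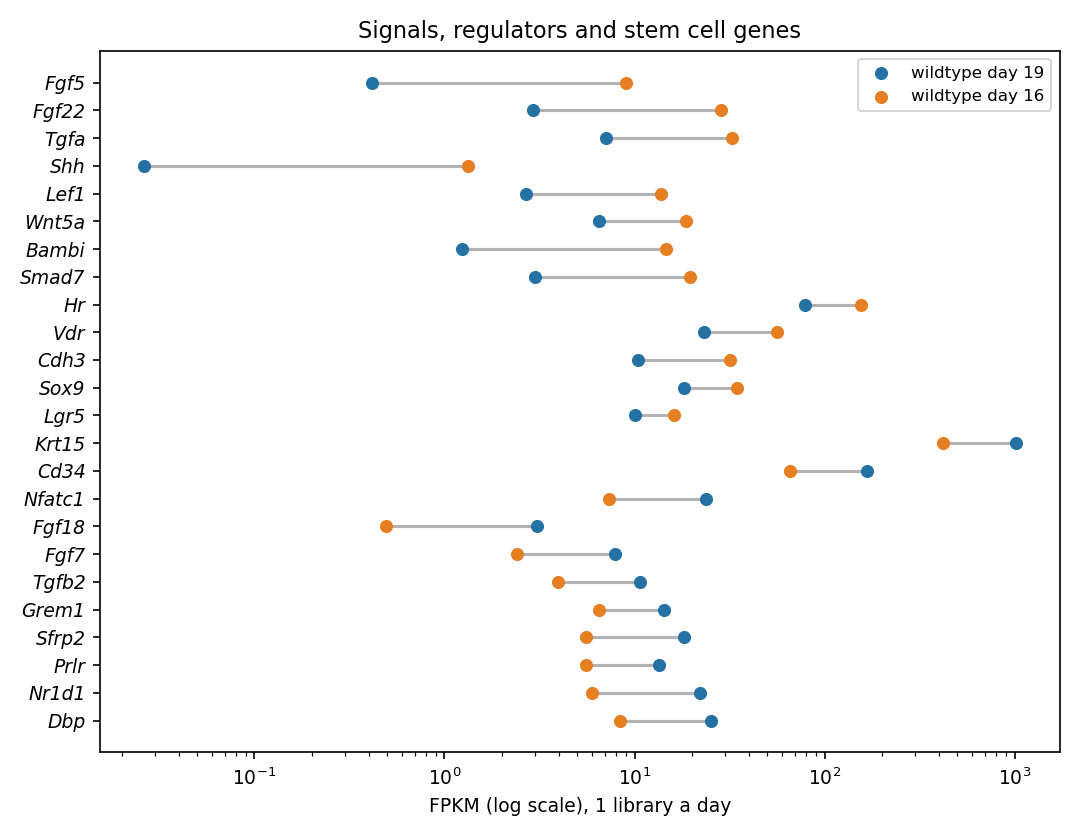
FPKM (log scale) of 24 signalling, regulatory and stem cell genes in wildtype skin, 1 library a day, with day 19 in blue and day 16 in orange joined by a line. Day 19 lies to the left for the genes from Fgf5 to Lgr5 and to the right for those from Krt15 to Dbp. Fgf5 stood at 0.418 and 9.05 FPKM and Fgf18 at 3.07 and 0.492 FPKM at days 19 and 16.

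Markers of the resting bulge were among the genes that rose. Of 19 compared bulge and hair germ genes, 5 rose and 2 fell. Krt15, a keratin of bulge and basal cells, had 1018 FPKM at day 19 and 421 FPKM at day 16. Cd34, a surface marker of mouse bulge cells that endothelium and dermal cells also carry, had 167 and 65.6 FPKM. Nfatc1, which keeps bulge cells quiescent, had 23.9 FPKM at day 19 and 7.300 FPKM at day 16. Fcgbp and Fgf18 also rose. Other bulge regulators did not: Sox9 stood at 18.2 FPKM at day 19 and 34.4 FPKM at day 16, Lgr5 at 10.03 and 16.1 FPKM, and Lhx2 at 10.7 and 12.3 FPKM. Cdh3, the P-cadherin of germ and matrix, fell, at 10.5 and 31.8 FPKM. Of 20 dermal papilla genes, 4 rose and 1, the activin subunit gene Inhba, fell. Those that rose were Fgf7, Enpp2, which makes lysophosphatidic acid, at 37.7 and 16.9 FPKM, the leptin receptor gene Lepr and the integrin gene Itga9. All of these calls were lost with a pseudocount of 5, Fgf7 at 0.79, Enpp2 at 0.97, Lepr at 0.70 and Itga9 at 0.67. Inhba was at -0.44 there, and at -0.79 with coding-total scaling, and missed the rule under every other scaling tried. Corin, a protease marking the papilla, stood at 1.67 FPKM at day 19 against 3.63 FPKM at day 16, and Alpl, the papilla's alkaline phosphatase, at 2.204 and 1.24 FPKM, both short of the rule and in opposite directions. Sox2, a further papilla marker, was under 1 FPKM in both libraries.

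Some differentiation genes of the surface epidermis rose. Of 11 epidermal keratins, 5 rose and 1, Krt23, fell. Krt1, of the suprabasal layers, had 218 FPKM at day 19 against 76.4 FPKM at day 16, and its partner Krt10 had 1107 and 508 FPKM. Krt77, Krt24 and Krt15 rose as well, of which Krt15 is the keratin of bulge and basal cells given above. Krt24 had 2.55 FPKM at day 19 and 0.182 FPKM at day 16. It passed the minimum through day 19 alone and was at 0.54 with a pseudocount of 5. The basal pair Krt5 and Krt14 did not pass, with Krt14 at 618 FPKM at day 19 and 1103 FPKM at day 16. Of 31 genes of the cornified envelope and granular layer, 10 rose and 3 fell. Of those that rose, 8 belong to the late cornified envelope family, led by Lce1l, at 41.9 and 12.3 FPKM, and Lce1a1, at 137 and 47.4 FPKM. Lor, the main envelope protein, had 156 FPKM at day 19 against 77.4 FPKM at day 16, and rose by just over the 2-fold rule, with 0.97 under a pseudocount of 5. Flg2, a relative of filaggrin, was the tenth. Flg, the filaggrin gene, stood at 89.1 and 73.2 FPKM. The 3 that fell were Cnfn, the cornifelin gene, at 26.6 FPKM at day 19 against 294 FPKM at day 16, and the transglutaminases Tgm3 and Tgm1. Rptn and Hrnr, related to filaggrin, were listed at 0 at day 16, with 41.5 and 16.97 FPKM found at day 19. Wound-type genes did not rise, with 3 of 9 lower and none of the 9 higher. S100a8, an alarmin of stressed keratinocytes and neutrophils, had 7.64 FPKM at day 19 and 134 FPKM at day 16.

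Lipid genes are grouped here by gland, barrier, cholesterol synthesis and fat. Of all compared genes, 6.52% rose and 6.37% fell. Of 20 sebaceous gland genes, 3 rose and 1 fell, with a median of 0.71. Awat2, which makes wax esters, had 64.8 FPKM at day 19 against 23.98 FPKM at day 16, and Far2, which makes the fatty alcohols for them, had 91.6 and 41.6 FPKM. Scd1 and Mgst1, abundant in the gland, stood at 378 and 164 FPKM at day 19 against 294 and 113 FPKM at day 16, short of 2-fold. Prdm1, a repressor in skin and gland, fell, at 10.7 and 28.4 FPKM. Of 18 enzymes of epidermal barrier lipids, 3 rose and 1 fell, with a median of -0.11 that changed sign under scaling. The lipoxygenases Alox12b and Aloxe3, which oxidise barrier ceramides, rose, with Alox12b at 20.5 FPKM at day 19 against 7.46 FPKM at day 16, and Pnpla1 fell, at 4.72 and 18.7 FPKM. Cholesterol synthesis genes did not move as a list, with 1 of 20 lower. This was Insig1, the sterol sensor, at 17.9 and 53.01 FPKM. Of 19 dermal white fat genes, 6 rose and none of the 19 fell. Adrb3, the fat cell adrenoceptor, had 6.18 FPKM at day 19 and 1.38 FPKM at day 16. Adipoq, the adiponectin gene, stood at 137 and 72.8 FPKM and Lep, the leptin gene, at 9.09 and 13.6 FPKM, neither past the rule.

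Dermal genes rose widely. Of 22 compared matrix and fibroblast genes, 15 rose and none of the 22 fell at least 2-fold, with a median of 1.09. Col1a2 had 3535 FPKM at day 19 and 1215 FPKM at day 16, Lum had 219 and 76.2 FPKM, and Dcn had 1118 and 396 FPKM. These encode a fibrillar collagen chain and small proteoglycans bound to its fibrils. Col1a1 and Col3a1 were listed at 0 at day 19 beside 1236 and 1706 FPKM at day 16, and since Col1a2, the partner chain of Col1a1, was high at day 19 these zeros are not read as a fall. Pdgfra, a fibroblast receptor, stood at 33.2 FPKM at day 19 and 22.7 FPKM at day 16, short of 2-fold. Of 14 matrix metalloproteinases and inhibitors, 5 rose, led by Mmp2, a gelatinase of fibroblasts, at 158 and 52.9 FPKM, and Mmp11, at 46.5 and 16.5 FPKM. Basement membrane and hemidesmosome genes rose in 2 of 15 cases, Col7a1, of the anchoring fibrils, and Nid1, at 0.86 and 0.94 with a pseudocount of 5. Scaling moves these values as a block, and the median of the dermal list lay between 1.11 and 1.42 under the 3 other scalings.

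More than 1 list of immune genes held members that rose. Of 15 macrophage genes, 8 rose and none of the 15 fell, with a median of 1.09, which was 0.91 with a pseudocount of 5. Cd68, a lysosomal protein, had 20.1 FPKM at day 19 and 7.07 FPKM at day 16, Adgre1, the F4/80 antigen, had 23.5 and 9.49 FPKM, and Csf1r, the receptor for the macrophage growth factor, had 128 and 56.5 FPKM. Of 8 compared mast cell genes, 7 rose, with the proteases Cpa3 and Mcpt4 at 91.2 and 116 FPKM at day 19, against 35.2 and 45.4 FPKM at day 16. The median of this list was 0.86 with a pseudocount of 5, where Hdc at 0.70 and Mrgprb1 at 0.64 were among those that no longer passed. Of 10 genes of Langerhans cells and MHC class II, 4 rose and 1 fell. H2-Aa, an MHC class II chain, had 281 and 114 FPKM and rose, Cd207, the Langerhans marker, stood at 12.8 and 6.64 FPKM, and Epcam, which hair and sheath cells express too, fell, at 52.4 and 119.9 FPKM. Of 9 T cell genes 1 rose, Fcer1g, which macrophages and mast cells express too, and the defining marker Cd3e stood at 4.24 FPKM at day 19, against 1.87 FPKM at day 16. Neutrophil genes mostly missed the minimum. Of 12, 9 stayed under 1 FPKM in both libraries, Cxcr2 and Csf3r among them, and 2 of the 3 compared were the alarmins S100a8 and S100a9, which keratinocytes also make. The other was Retnlg, at 2.82 FPKM at day 19 and 0.665 FPKM at day 16. Among cytokines, Ccl2 and Il33 rose, with Il33, an epithelial alarm signal, at 6.63 FPKM at day 19 against 2.13 FPKM at day 16, and Cxcl14, a chemokine of epithelia, fell, at 34.3 and 84.99 FPKM. Interferon response genes rose in 2 of 10 cases, Ifit3 and Oasl2.

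Vessel and nerve genes were higher at day 19 by steps that mostly missed the rule. Of 15 endothelial genes 1 rose, Vegfa, a growth factor for vessels that is not itself an endothelial marker, at 26.8 FPKM at day 19 and 11.6 FPKM at day 16. The defining markers Pecam1 and Cdh5 stood at 31.2 and 18.2 FPKM at day 19 against 16.4 and 11.9 FPKM at day 16, and all 15 differences lay between 0.56 and 1.14. Schwann cell and nerve genes rose in 3 of 11 cases, with Cdh19 at 6.84 and 2.402 FPKM. The haemoglobin genes of red blood cells rose, Hba-a1 to 293 FPKM at day 19 against 129 FPKM at day 16 and Hbb-bs to 579.9 against 251 FPKM. Slc4a1, the anion exchanger of the red cell membrane, fell, at 0.681 FPKM at day 19 and 9.21 FPKM at day 16. Near-identical copies of the globin genes make the split between them uncertain. The part of blood content in the vessel and immune lists was not tested.

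Skeletal muscle genes rose more than any other list. Of 22 compared genes, 20 rose at least 2-fold and none of the 22 fell, with a median of 1.97, and the list's summed level was 10131 FPKM at day 19 and 2585 FPKM at day 16. Myh4, the myosin of the fastest fibres, had 526 FPKM at day 19 and 79.2 FPKM at day 16. Acta1, the muscle actin, had 1999 and 537 FPKM, and Ckm, muscle creatine kinase, had 894 and 165 FPKM. None of these defining markers was at 0 in either library. Of the 12 largest rises of all genes, 7 were on the list, namely Myh4, Actn3, Pvalb, Ckm, Atp2a1, Mybpc2 and Neb. Genes whose deposited ontology text names muscle made up 129 of the 884 that rose (14.6%) and 783 of all 13557 compared (5.78%), which leaves 755 risen genes without such a term. Of 4 compared genes of developing muscle 1 rose, the cardiac actin gene Actc1, at 7.79 FPKM at day 19 and 2.298 FPKM at day 16. Myod1, a muscle lineage factor, stood at 1.08 and 0.365 FPKM, the fetal myosin gene Myh8 at 2.73 and 2.53 FPKM, and Myh3 under 1 FPKM in both libraries. Of 7 compared brown fat genes 4 rose, and these 4 (Cox8b, Cox7a1, Cpt1b and Fabp3) are muscle genes as well, while Ucp1, the defining gene of brown fat, was near 0.1 FPKM in both libraries. Because there is 1 library a day, any list that rose necessarily moved with the summed muscle level. The part of muscle content in those lists was not tested.

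Several genes with a daily rhythm passed the rule. Of 17 clock genes, 6 rose and 1 fell. Nr1d1, the REV-ERB alpha repressor, had 22.2 FPKM at day 19 against 5.94 FPKM at day 16, and Dbp, an output factor, had 25.2 and 8.41 FPKM. Nr1d2, Per3, Hlf and Tef rose as well, and Nfil3, which opposes Dbp at its sites, fell, at 9.73 and 27.8 FPKM. Arntl, the BMAL1 gene, peaks opposite to Nr1d1 in most tissues and stood at 9.09 FPKM at day 19 and 10.4 FPKM at day 16. The hour at which skin was taken is not given in the labels, and its part in these values was not tested. Of 14 immediate early genes, 5 rose and 1 fell. Fos, which cells switch on within minutes of a stimulus, had 25.4 and 7.73 FPKM, Dusp1 and Fosb rose too, and Junb fell, at 34.8 FPKM at day 19 and 90.2 FPKM at day 16. None of 12 heat shock and stress genes passed in either direction.

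Among the 12 largest rises that are not muscle genes, Wfdc3, a small secreted protein with a protease inhibitor fold, had 31.1 FPKM at day 19 and 1.31 FPKM at day 16. It was the only gene of the 13557 to rise past 8-fold on the log2(FPKM + 1) scale. By ratio of FPKM alone, Cyp2e1 was 17.7-fold, Myoc 13.2-fold and Slc5a11 83.8-fold higher, each from under 1 FPKM. Cyp2e1, a cytochrome P450 of liver and fat, had 11.05 and 0.625 FPKM, Myoc, the myocilin gene, had 10.5 and 0.798 FPKM, and Slc5a11, a sodium-coupled inositol transporter, had 4.14 and 0.0494 FPKM. These 3 passed the minimum through day 19 alone. The day 16 value of Slc5a11 is under the floor of 0.0927 FPKM, and its difference was 0.86 with a pseudocount of 5. Lars2, the mitochondrial leucyl-tRNA synthetase, had 154 FPKM at day 19 and 20.98 FPKM at day 16.

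The levels over all 4 wildtype ages set the step in context. The median of the keratin-associated protein list was 0.201 FPKM at day 0, 198 FPKM at day 16, 1.83 FPKM at day 19 and 171 FPKM at day 28. Hair shaft keratins had medians of 1.18, 313, 2.17 and 343 FPKM over those ages and the inner root sheath list 25.4, 545, 9.46 and 351 FPKM. Shaft genes were thus low at day 0, high at day 16, low at day 19 and high again at day 28. Other lists and genes stood apart between days 0 and 19. The cell cycle median was 17.9, 6.93, 4.13 and 19.1 FPKM at days 0, 16, 19 and 28. Krt15 had 172, 421, 1018 and 350.2 FPKM over the same ages and Fgf18 1.25, 0.492, 3.07 and 0.927 FPKM. Pigment genes were high at day 28, with Tyrp1, a melanosomal enzyme, at 8.56, 5.995, 4.62 and 101 FPKM. The skeletal muscle median was 118, 60.4, 222 and 126 FPKM, so day 16 had the lowest and day 19 the highest level.

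**Figure D5:**
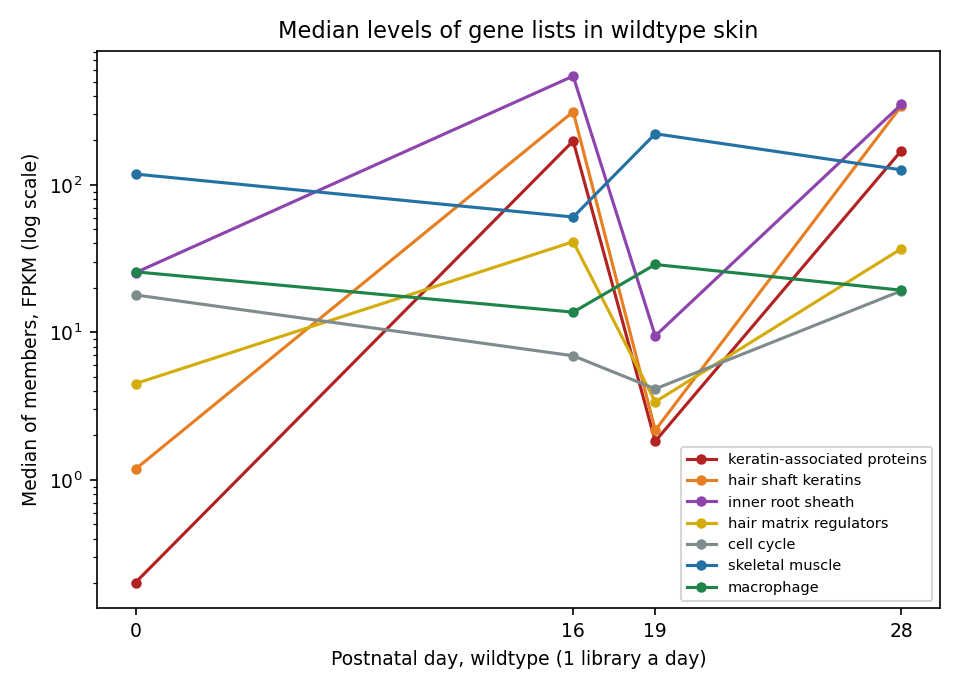
Median FPKM (log scale) of the compared members of 7 lists in wildtype skin at postnatal days 0, 16, 19 and 28, 1 library a day. Keratin-associated proteins, hair shaft keratins, inner root sheath and matrix regulators drop at day 19 and are high again at day 28, and skeletal muscle and macrophage genes are highest at day 19.

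The same days in hairloss skin, which share no library with the wildtype step, held far fewer differences past 2-fold. At least 2-fold higher at day 19 than at day 16 were 148 of 13333 compared genes (1.11%), and 181 were lower (1.36%), together 2.47%. For scale, hairloss and wildtype skin at day 0 differed by at least 2-fold in 120 of 13221 compared genes (0.908%), 60 of them higher (0.454%) and 60 lower (0.454%) in hairloss. Genes that fell in both genotypes numbered 121, which is 14.02% of the 863 that fell in wildtype and 66.9% of the 181 that fell in hairloss. Genes that rose in both numbered 94, or 10.6% of the wildtype and 63.5% of the hairloss list. The correlation of the differences across the 13557 genes was 0.438, a description over genes that share their libraries. The 147 genes that fell past 16-fold in wildtype had a median difference of -5.91 there and -1.17 in hairloss. Krt31 shows the pattern. It had 0.915 and 313 FPKM in wildtype at days 19 and 16, and 33.3 and 80.7 FPKM in hairloss. At day 19 the hairloss library thus held more Krt31 than wildtype and at day 16 less, and Krt71 ran likewise, with 28.6 and 2666 FPKM in wildtype and 542 and 1904 FPKM in hairloss. Skeletal muscle genes rose in both genotypes, with 18 of 22 genes higher and a median of 1.84 in hairloss. That median was below the 1.97 of wildtype, but some members rose more in hairloss. The largest such rise was that of Myh4, with a difference of 6.39 in hairloss and 2.71 in wildtype. Macrophage genes had a hairloss median of -0.58, and 1 of 15 fell there. Bulge markers did not pass in hairloss, where Krt15 had 212 FPKM at day 19 against 272 FPKM at day 16 and Cd34 48.2 and 60.7 FPKM. The difference between the genotypes was not tested, with 1 library each.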

How the data were processed

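RNA from mouse skin was extracted with RNeasy columns and sequenced from TruSeq libraries, per the labels' protocols. The sources used here state neither strandedness nor the number of animals per library. Reads were trimmed with cutadapt and quantified with Cuffdiff against mm10, per the submitters' processing notes, which list no versions. The authors deposited 1 value per gene and library, taken here as FPKM because Cuffdiff writes that unit and low values step with transcript length. That the unit is FPKM is an inference. Depth was estimated from those steps, as 30900000 to 44700000 fragments over the 8 libraries, and intervals were not formed.

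Gene types, positions and lengths came from GENCODE M21 on GRCm38, which annotated 55237 of the 55418 gene identifiers. The differences, medians and counts used Python 3.11.15 with numpy 2.4.6 and pandas 2.3.3, and matplotlib 3.10.9 drew the figures. The script was tested on simulated data. A difference is log2(FPKM + 1) at day 19 minus day 16, and 2-fold means at least 1 on that scale. Genes listed at 0 in 1 library were set apart. With 1 library per group there was no test. Groups came from the labelled age and genotype. Named genes are the 12 largest differences in each direction, up to 5 largest of each list, any member of a list of 12 or fewer, cell type markers, genes listed at 0 and sex-linked genes, and other members are named after their values were seen. The members and lists were chosen with earlier results of these data known. Alternatives changed the pseudocount, the minimum, the scaling, the gene types, the treatment of zeros and short transcripts. Promoters came from RefSeq on GRCm38.p6, with 10548 of 13548 compared symbols (77.9%) matched, so shares are given only for groups with at least 80% matched. Genes under 200 bases held 39.3% of all FPKM at day 19 and 59.7% at day 16. Shares of FPKM were therefore taken over coding genes only. Differences, counts and medians used the values as deposited, rescaled only in the scaling alternatives.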

Additional observations from a re-analysis of the deposited data

Results flagged for a closer look

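Macrophage genes had a median difference between day 19 and day 16 of 1.09 in wildtype and -0.58 in hairloss skin, with all 15 members above 0 in wildtype. They stand out because the medians differ in sign. In hairloss 1 of the 15 genes fell past the 2-fold rule, and the wildtype median was 0.91 with a pseudocount of 5. The difference between the genotypes was not tested. The neutrophil list had a median of -2.06 in wildtype and 0.78 in hairloss over 3 genes. Both medians are the value of S100a9, which like S100a8 is an alarmin that keratinocytes make. Retnlg, the remaining gene, had 1.20 in wildtype and -0.59 in hairloss. It passed the minimum through wildtype day 19 alone, and its wildtype difference was 0.46 with a pseudocount of 5. With no minimum value the wildtype median of the list was -0.04. The list therefore gives no direction for neutrophils. S100a8 had 7.64 and 134 FPKM in wildtype at days 19 and 16, and 3499 and 1984 FPKM in hairloss. That difference was not tested either.

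Among single genes, 15 were at least 2-fold higher at day 19 in wildtype and at least 2-fold lower in hairloss. Adgre1, of the macrophage list, and Ccl2, of the cytokine list, are among them, and so are Retnla, Mgl2, Ear2, Fcrls, Ccl7, Ccl8 and Ccl24. Retnla, a marker of alternatively activated macrophages, had 103 and 28.8 FPKM in wildtype at days 19 and 16, and 35.0 and 93.2 FPKM in hairloss. In the reverse direction were 4 genes, Cox20, Uqcrc1, Sprr1b and Gm20390. These differences were not tested.

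Xist lies outside the comparison as a noncoding gene and stood at 12.4 FPKM in the wildtype day 19 library, against 0.0158 FPKM at day 16, 51.3 FPKM at day 0 and 0.166 FPKM at day 28. Y-linked genes were present in all 4.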

How the results depend on the processing

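Counts of genes 2-fold higher were 884 as deposited, 1557 with a pseudocount of 0.1, 285 with 5, 1720 after scaling to the coding total and 1347 after scaling without keratins and keratin-associated proteins. Genes 2-fold lower were 863 and, with a pseudocount of 5, 561. The macrophage median of 1.09 was 0.91 with a pseudocount of 5, and the mast cell median of 1.24 was 0.86, both under 2-fold. Under the other settings (no minimum, a minimum of 5, a median difference of 0, zeros kept, all gene types, transcripts under 500 bases left out, and muscle ontology genes left out, an alternative chosen after seeing the data) both counts were within 1.5 times, and the last gave 755 higher genes. No list or gene on one side of the 2-fold rule changed to the opposite side. Of 278 gene results 95 crossed the rule under some setting, and of 50 lists 13. List medians that changed sign under scaling were those of the Hedgehog, Wnt, bulge, barrier lipid, cholesterol, immediate early and heat shock lists, all within 0.31 of 0 on the log2 scale as deposited. No paired analysis was possible because each genotype and age has 1 library. Leaving out a replicate could not be run for the same reason. Values under about 0.1 FPKM rest on some 3 fragments or fewer in 1 kb and were not detectable as different.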

Other observations

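Some genes outside the lists that fell in wildtype were chosen after their values were seen. The gap junction genes Gjb2, Gjb6 and Gja3, neighbours on chromosome 14, fell together. Gjb2, the connexin 26 gene, had 5.73 FPKM at day 19 and 275 FPKM at day 16 in wildtype, and 184 and 180.2 FPKM in hairloss. Gjb6, the connexin 30 gene, had 1.895 and 32.3 FPKM in wildtype and 14.2 and 12.1 FPKM in hairloss. Neither fell in hairloss skin. Gja3 had 0.0965 and 18.3 FPKM in wildtype on those days. It fell past the rule in hairloss too, at 1.79 and 5.12 FPKM. In wildtype all 3 were high again at day 28, with Gjb2 at 239 FPKM. Slc7a11, the cystine transporter, had 0.175 FPKM at day 19 and 9.74 FPKM at day 16, Slc39a8, a zinc and manganese importer, had 4.09 and 59.7 FPKM, and Fbp1, a gluconeogenic enzyme, had 0.434 and 60.8 FPKM.

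Some genes had their highest level of all 8 libraries in wildtype day 19 skin. Krtdap, a secreted protein of differentiating keratinocytes, had 6162 FPKM there and 2105 FPKM at day 16, and at most 3865 FPKM in any of the other libraries. Ifitm6, an interferon-induced family member, had 40.5 and 7.698 FPKM at days 19 and 16, and Skint11, of a butyrophilin-like family in skin, had 19.9 and 5.29 FPKM. Ccl11, the eotaxin gene, had 43.8 and 13.7 FPKM. Hamp, the iron hormone hepcidin, had 20.7 FPKM at day 19 and 5.29 FPKM at day 16, 2.01 FPKM at day 28 and was listed at 0 at day 0. Mest, an imprinted gene of fetal growth, moved alike in both genotypes, at 2.86 and 15.4 FPKM in wildtype and 4.27 and 20.6 FPKM in hairloss at days 19 and 16.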
